A study of Mus musculus with 8 samples.

Results

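NRF2 and 9 genes of the antioxidant defence around it were examined in hepatocytes of Gata4 fl/fl mice that had received a Cre or a GFP virus. The 10 genes were Nfe2l2, which encodes NRF2, Keap1, Nqo1, Gclc, Gclm, Srxn1, Txnrd1, Gsr, Hmox1 and Cat. Members were taken by gene symbol, and every probe annotated to one of them was kept if it had a detection p-value of 0.05 or less in at least 1 of 8 arrays. This gave 12 probes of 7 genes among 19618 detected probes. Nqo1, Gsr and Cat had 0 probes under their symbol in the annotation used, which left 5210 detected probes unnamed, and they were not analysed here.

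NRF2 is a leucine zipper transcription factor that heterodimerises with small MAF proteins on antioxidant response elements. In unstressed cells KEAP1 bridges NRF2 to a cullin ubiquitin ligase and keeps its level low. Electrophiles and oxidants modify KEAP1 cysteines, NRF2 accumulates, and genes for glutathione synthesis, thiol repair, heme breakdown and NADPH production are induced. In the liver the pathway is best known for protection against reactive drug metabolites.

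Both groups were hepatocytes of Gata4 fl/fl mice on a CD1 x 129S1/SvImJ background, aged 2 to 3 months. The AAV-Cre group had received AAV8-Tbg-Cre intravenously, which carries the recombinase that acts on the floxed part of Gata4, a zinc finger factor of the GATA family. The AAV-GFP group had received AAV8-Tbg-GFP. RNA was taken 2 weeks after injection, and the Tbg promoter restricts expression of the transgene to hepatocytes. Each group had 4 samples, each on 1 Illumina bead array. Whether the 4 samples of a group were 4 separate mice is not in the labels, so p-values cover the spread between samples, which may in part be technical.

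Between 14788 and 16387 of 45281 probes were detected per array, fewest in AAV-Cre replicates 3 and 4, and precision is limited by the number of arrays. The Gata4 probe was detected in 1 of 8 arrays (AAV-Cre replicate 1), and it lay between 5.02 and 5.37 on the log2 scale in AAV-GFP and between 5.72 and 6.28 in AAV-Cre, higher and not lower in AAV-Cre (0.72 ± 0.16, limma adjusted p = 0.518). Its place relative to the floxed part is not given, so it gave no check of excision, and the groups are named by their labels. Those labels call the AAV-Cre samples GATA4 depleted. By RT-qPCR and western blot the paper reports a marked loss of GATA4 mRNA and protein in hepatocytes of AAV-Cre mice. Xist was high in AAV-GFP replicates 1 and 4 (13.33 and 13.78 on the log2 scale) and lay between 5.07 and 5.33 in the other 6 arrays. The Y-linked Uty was 6.08 and 5.93 in those arrays and between 7.09 and 7.56 in the other 6. The Y-linked Kdm5d was 5.47 and 5.42 there, 5.96 and 5.37 in AAV-Cre replicates 3 and 4, and between 7.75 and 8.34 in the other 4. AAV-GFP replicates 1 and 4 thus had the pattern of female and the other AAV-GFP arrays that of male tissue, so the AAV-GFP arrays were not of 1 animal, and the labels give no sex. Of 10 hepatocyte markers 6 were measured, and Alb, Hnf4a, F10 and Serpina1a were detected in all 8 arrays. Of the other 2, Fgb was detected in 5 arrays and Tat in 1. Of 11 sinusoidal endothelial markers 10 were measured, all with a higher mean in AAV-Cre and 3 at an unadjusted p under 0.05. Beside them, 5559 of 9640 named genes (1 probe each) had a higher mean in AAV-Cre, and 5.13% were higher at that threshold. The summed signal of the endothelial markers was 4547 to 9385 in AAV-GFP and 6723 to 9837 in AAV-Cre, and their part in the members' values was not tested. Results that follow are normalized log2 signals, and differences are AAV-Cre minus AAV-GFP with the standard error of the limma fit (n = 4 per group). Replicates are always listed from 1 to 4.

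No member passed the test. At an adjusted p under 0.25, 0 of the 12 member probes were called, beside 1 of all 19618 detected probes (0.00510%). At an unadjusted p under 0.05 there were 3 member probes, of which 2 for Srxn1 were higher and 1 for Keap1 was lower in AAV-Cre, beside 9.46% of all probes (5.20% higher and 4.26% lower). The groups did not overlap for 2 member probes, 1 of Srxn1 above and 1 of Keap1 below, beside 4.86% of all probes (3.12% above and 1.74% below). Keap1 had 4 and Srxn1 3 of the 12 probes, and probes of 1 gene may share a transcript, so the 12 cannot be taken as independent. The median difference of the member probes was 0.08, and that of all detected probes was 0.04.

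**Figure D1:**
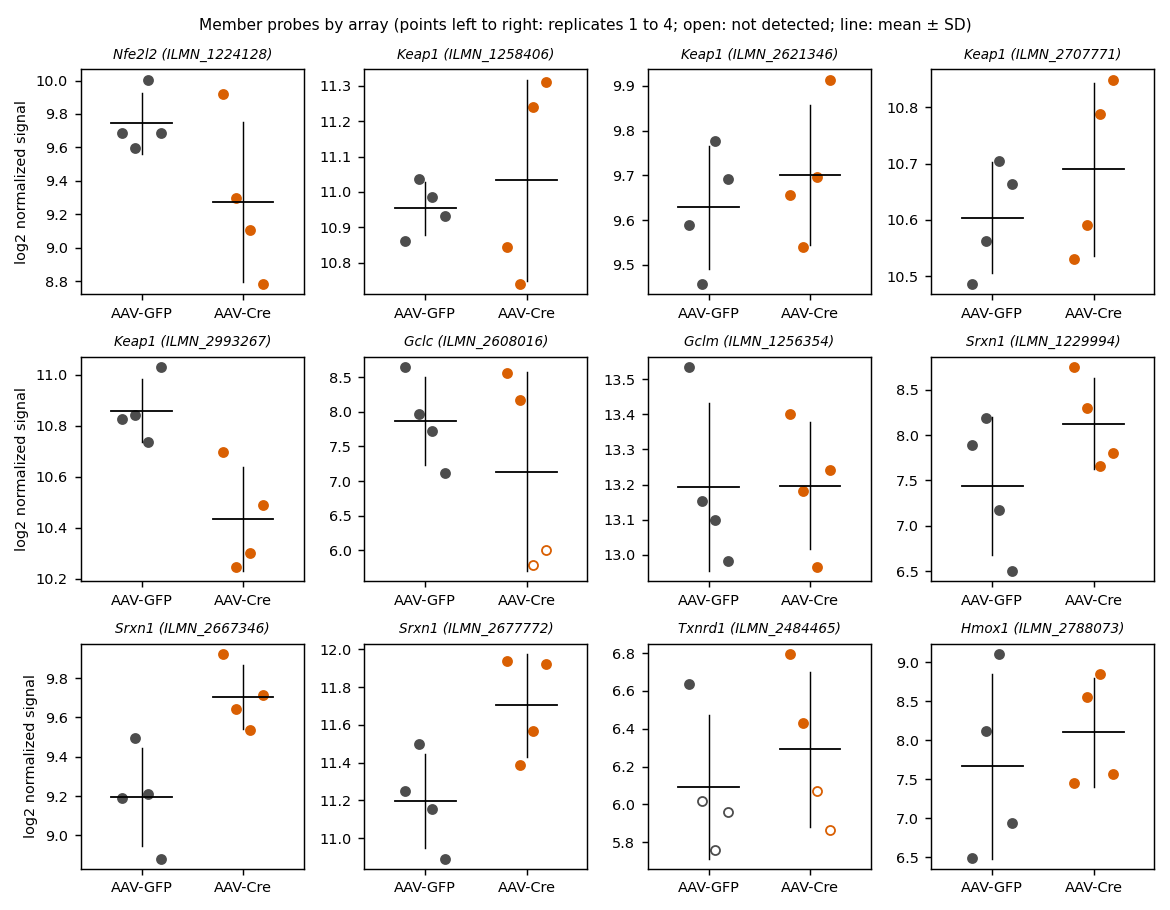
Normalized log2 signal (vertical axis, a scale of its own for each panel) of the 12 member probes in 4 AAV-GFP (grey) and 4 AAV-Cre (orange) arrays, with points from left to right for replicates 1 to 4, open points for arrays without detection, and lines for the mean and SD. Only Srxn1 ILMN_2667346 and Keap1 ILMN_2993267 have groups that do not overlap, and Gclc falls below detection in AAV-Cre replicates 3 and 4.

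The promoters of 5 measured members are shown because a motif search matched letters in their upstream bases, either the core of the antioxidant response element, to which NRF2 binds, or the GATA core, to which GATA4 binds, or, for Srxn1, a related motif that was added after its sequence had been seen. Of the 3 Txnrd1 windows the one with matches is given. The measured members Gclc and Hmox1 had no window available, so their promoters were not searched. The sequences are the 250 bases before the RefSeq start on GRCm38.p6, in the direction of transcription, with the matched letters in capitals. In that order they lie at chr2:75704664-75704913 (minus strand), chr9:21239333-21239582 (minus strand), chr3:122245307-122245556 (plus strand), chr2:152105274-152105523 (plus strand) and chr10:82858956-82859205 (plus strand).
Nfe2l2: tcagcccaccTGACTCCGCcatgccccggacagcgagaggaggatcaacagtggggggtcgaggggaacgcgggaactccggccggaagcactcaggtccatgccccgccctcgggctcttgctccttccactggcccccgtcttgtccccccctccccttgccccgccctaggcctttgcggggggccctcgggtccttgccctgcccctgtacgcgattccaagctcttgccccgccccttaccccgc
Keap1: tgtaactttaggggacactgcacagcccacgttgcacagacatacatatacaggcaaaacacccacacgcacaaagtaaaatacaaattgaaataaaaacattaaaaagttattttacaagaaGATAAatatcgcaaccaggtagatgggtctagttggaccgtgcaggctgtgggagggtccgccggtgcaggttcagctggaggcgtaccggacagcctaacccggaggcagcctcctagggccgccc
Gclm: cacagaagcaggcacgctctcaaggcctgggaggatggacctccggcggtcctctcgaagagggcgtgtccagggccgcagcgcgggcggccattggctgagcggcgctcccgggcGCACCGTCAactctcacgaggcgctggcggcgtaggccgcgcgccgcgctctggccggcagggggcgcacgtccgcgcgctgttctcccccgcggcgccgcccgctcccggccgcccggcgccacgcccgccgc
Srxn1: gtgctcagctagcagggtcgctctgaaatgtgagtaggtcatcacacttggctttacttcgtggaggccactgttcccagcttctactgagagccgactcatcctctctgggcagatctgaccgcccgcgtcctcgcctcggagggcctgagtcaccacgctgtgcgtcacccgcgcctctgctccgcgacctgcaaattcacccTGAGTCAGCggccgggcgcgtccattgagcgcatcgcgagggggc
Txnrd1: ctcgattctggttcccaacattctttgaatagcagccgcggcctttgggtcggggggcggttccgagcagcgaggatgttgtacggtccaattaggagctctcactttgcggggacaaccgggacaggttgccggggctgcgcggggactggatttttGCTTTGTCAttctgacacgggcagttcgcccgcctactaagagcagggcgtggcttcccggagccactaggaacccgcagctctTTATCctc

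The motifs searched on both strands were TGACNNNGC, the element's core, and GATAA, the GATA core, in windows from 250 bases before to 50 bases after the start. The core was found in the Nfe2l2 window at -240, in the Gclm window on the reverse strand at -134, and in the Srxn1 window on the reverse strand at 28, downstream of the printed bases. It was present in 12.4% of 32851 RefSeq windows of the same length. GATAA was found in the Keap1 window at -127 and in 25.4% of all windows. The Srxn1 window also held TGAGTCAGC at -45, a match to the added motif TGANTCAGC, which occurred in 1.19% of windows. Its printed bases held neither of the other motifs. The Txnrd1 window held the core on the reverse strand at -92 and GATAA on the reverse strand at -8. A match is a description of these letters and not a bound site.

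Nfe2l2, the transcription factor itself on chromosome 2, had 1 probe. Its signal was 9.68, 9.59, 10.01 and 9.69 in the AAV-GFP arrays and 9.92, 9.30, 9.10 and 8.78 in the AAV-Cre arrays. The AAV-Cre arrays 2 to 4 lay below every AAV-GFP array, whereas AAV-Cre replicate 1 lay above 3 of the 4. The means were 9.74 ± 0.18 and 9.27 ± 0.48 (SD, n = 4 each), and the difference of -0.47 ± 0.24 did not pass the test (95% interval -1.0 to 0.07, limma adjusted p = 0.523). Without AAV-Cre replicate 1 the difference was -0.68 (adjusted p = 0.284), without AAV-Cre replicate 4 it was -0.30, and without AAV-Cre replicates 3 and 4 it was -0.13. AAV-Cre replicates 3 and 4 lay below the other 6 arrays for Nfe2l2, and they also did so for 13.4% of 9640 named genes.

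Keap1, the repressor of NRF2 on chromosome 9, had 4 probes that did not run alike. For ILMN_2993267 the signal was 10.82, 10.84, 10.74 and 11.03 in AAV-GFP and 10.69, 10.24, 10.30 and 10.49 in AAV-Cre. All 4 AAV-Cre arrays lay below all 4 AAV-GFP arrays, with AAV-Cre replicate 1 and AAV-GFP replicate 3 next to each other. The means were 10.86 ± 0.12 and 10.43 ± 0.20 (SD, n = 4 each). The difference of -0.43 ± 0.15 (95% interval -0.76 to -0.09) did not pass the adjusted test (0.518).

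The other Keap1 probes gave differences close to 0. ILMN_1258406 read 10.86, 11.04, 10.99 and 10.93 in AAV-GFP and 10.84, 10.74, 11.24 and 11.31 in AAV-Cre, a difference of 0.08 ± 0.16 (95% interval -0.29 to 0.45, adjusted p = 0.871). AAV-Cre replicates 3 and 4 were the highest arrays and AAV-Cre replicates 1 and 2 the lowest, so the AAV-GFP arrays lay between them. ILMN_2621346 ranged from 9.46 to 9.78 in AAV-GFP and from 9.54 to 9.91 in AAV-Cre, a difference of 0.07 ± 0.14 (95% interval -0.24 to 0.39). ILMN_2707771 ranged from 10.49 to 10.70 in AAV-GFP and from 10.53 to 10.85 in AAV-Cre, a difference of 0.09 ± 0.13 (95% interval -0.22 to 0.39). Both sets of groups overlapped over most of their range. Over the 8 arrays these 3 probes correlated with each other at Pearson r of 0.60, 0.78 and 0.83, and ILMN_2993267 correlated with them at -0.21, -0.12 and -0.39. Points share their array and group in these values, and whether the probes differ in response was not tested.

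**Figure D2:**
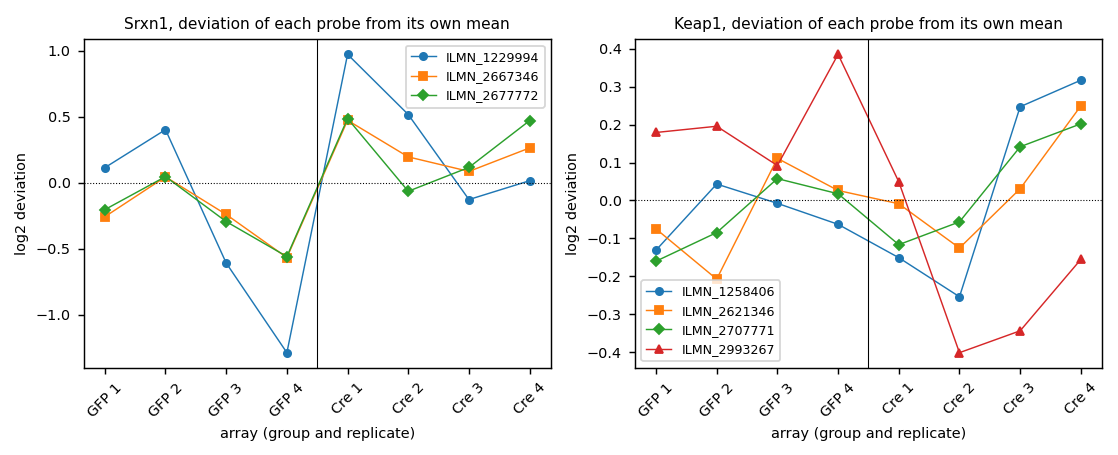
Deviation of each Srxn1 probe (left) and each Keap1 probe (right) from its own mean over the 8 arrays, on the log2 scale, with arrays along the horizontal axis and a vertical line between AAV-GFP and AAV-Cre. The 3 Srxn1 probes have their lowest value in AAV-GFP replicate 4, whereas Keap1 ILMN_2993267 (triangles) is below its mean in AAV-Cre replicates 2 to 4 and the other 3 Keap1 probes are above theirs in AAV-Cre replicates 3 and 4.

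Srxn1 encodes sulfiredoxin, which restores overoxidised peroxiredoxins, and lies on chromosome 2. All 3 of its probes had a higher mean in AAV-Cre. ILMN_2667346 gave 9.19, 9.49, 9.21 and 8.88 in AAV-GFP and 9.92, 9.64, 9.53 and 9.71 in AAV-Cre. Every AAV-Cre array lay above every AAV-GFP array, with AAV-Cre replicate 3 and AAV-GFP replicate 2 next to each other. The means were 9.19 ± 0.25 and 9.70 ± 0.16 (SD, n = 4 each), and the difference of 0.51 ± 0.16, a fold of 1.42, did not pass the adjusted test (95% interval 0.14 to 0.88, adjusted p = 0.518).

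ILMN_2677772 for Srxn1 gave 11.25, 11.50, 11.16 and 10.89 in AAV-GFP and 11.94, 11.39, 11.57 and 11.92 in AAV-Cre. AAV-Cre replicate 2 lay below AAV-GFP replicate 2, and the other AAV-Cre arrays lay above all AAV-GFP arrays. The difference was 0.50 ± 0.19 (95% interval 0.08 to 0.93, adjusted p = 0.518). ILMN_1229994 gave 7.90, 8.19, 7.18 and 6.50 in AAV-GFP and 8.75, 8.30, 7.66 and 7.80 in AAV-Cre. Its groups overlapped, and its difference of 0.69 ± 0.39 was the least precise of the 3 (95% interval -0.19 to 1.57, adjusted p = 0.538). It was 0.38 without AAV-GFP replicate 4 and 0.93 without AAV-GFP replicate 2.

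The 3 Srxn1 probes correlated over the 8 arrays at Pearson r between 0.75 and 0.93, and all had AAV-GFP replicate 4 lowest. AAV-GFP replicates 1 and 4, the arrays with high Xist, lay below the other 6 arrays for 2 of the 12 member probes, Srxn1 ILMN_2667346 and Hmox1, and for 7.11% of all named genes. Without both arrays the Srxn1 differences were 0.45, 0.36 and 0.38 for ILMN_1229994, ILMN_2667346 and ILMN_2677772. A yes or no term for high Xist in the fit marked only AAV-GFP replicates 1 and 4. It was nearly the same check as leaving those arrays out. With this term the Srxn1 differences were 0.45, 0.35 and 0.38, and 0 of the 3 kept an unadjusted p under 0.05.

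Gclc and Gclm encode the catalytic and the modifier subunit of glutamate-cysteine ligase, the first step of glutathione synthesis. Gclc, on chromosome 9, read 8.65, 7.97, 7.72 and 7.12 in AAV-GFP and 8.56, 8.18, 5.79 and 6.01 in AAV-Cre. The probe was detected in 4 of 4 AAV-GFP and 2 of 4 AAV-Cre arrays and not in AAV-Cre replicates 3 and 4, whose signals were background. The means were 7.86 ± 0.63 and 7.13 ± 1.43 (SD, n = 4 each), and the difference of -0.73 ± 0.65 had a 95% interval of -2.21 to 0.75 (adjusted p = 0.673). Leaving out AAV-Cre replicate 3 gave -0.29 and leaving out AAV-Cre replicate 1 gave -1.20. With AAV-Cre replicates 3 and 4 both left out the sign turned, to 0.50.

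Gclm, on chromosome 3, had the narrowest result of the glutathione ligase pair. It read 13.54, 13.15, 13.10 and 12.98 in AAV-GFP and 13.40, 13.18, 12.97 and 13.24 in AAV-Cre. The groups spanned the same range, and the difference was 0.0044 ± 0.17 (95% interval -0.37 to 0.38, adjusted p = 0.995).

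Txnrd1, on chromosome 10, encodes cytosolic thioredoxin reductase, and its probe was close to background. It read 6.64, 6.02, 5.76 and 5.96 in AAV-GFP and 6.79, 6.43, 6.07 and 5.87 in AAV-Cre. Only AAV-GFP replicate 1 and AAV-Cre replicates 1 and 2 passed detection. The difference was 0.20 ± 0.25 (95% interval -0.38 to 0.77, adjusted p = 0.782) and 0.03 without AAV-Cre replicate 1, and a change in this gene was not detectable at this signal.

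Hmox1, on chromosome 8, encodes heme oxygenase, which opens heme to biliverdin, iron and carbon monoxide and is strongly expressed in macrophages that clear red cells. It read 6.50, 8.12, 9.11 and 6.93 in AAV-GFP and 7.45, 8.55, 8.85 and 7.56 in AAV-Cre. The highest and the lowest array were both AAV-GFP, so the AAV-Cre arrays lay within the AAV-GFP range. The difference was 0.44 ± 0.58 (95% interval -0.87 to 1.74, adjusted p = 0.785). It was 0.04 without AAV-GFP replicate 1 and 0.92 without AAV-GFP replicate 3. It turned to -0.52 without AAV-GFP replicates 1 and 4 and to -0.51 with the Xist term, nearly the same check.

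Markers of Kupffer cells and macrophages were measured beside it. Of 14 marker genes 11 were measured, 10 had a higher mean in AAV-Cre, 4 of them at an unadjusted p under 0.05 and 0 at the adjusted threshold, and their median difference was 0.49. Beside them, 5559 of 9640 named genes had a higher mean in AAV-Cre and 5.13% were higher at an unadjusted p under 0.05, with a median difference of 0.05. The summed linear signal of the 11 markers was 1256 to 2229 in AAV-GFP and 1981 to 3217 in AAV-Cre. Marco was detected in 0 AAV-GFP arrays and 1 AAV-Cre array, and Clec4f, Vsig4 and Csf1r in all 8. Hmox1 was highest in AAV-GFP replicate 3, where the sum was 1795, and lowest in AAV-GFP replicate 1, where it was 1458. The part of these cells in the Hmox1 signal was not tested, and in bulk RNA fewer cells of a type and less RNA per cell cannot be told apart.

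**Figure D3:**
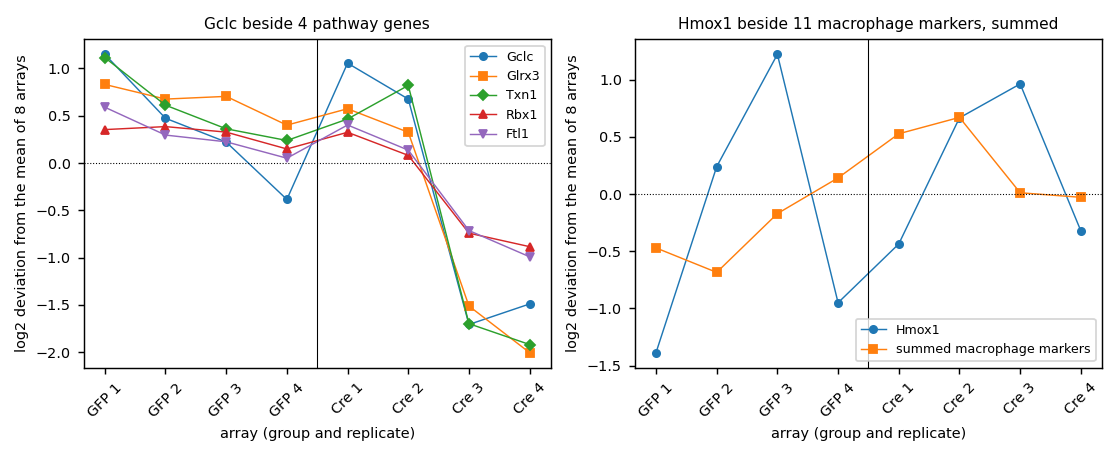
Deviation from the mean of the 8 arrays on the log2 scale, for Gclc with Glrx3, Txn1, Rbx1 and Ftl1 (left) and for Hmox1 with the log2 of the summed signal of 11 macrophage markers (right), with arrays along the horizontal axis and a vertical line between the groups. On the left all 5 genes are lowest in AAV-Cre replicates 3 and 4. On the right Hmox1 is highest in AAV-GFP replicate 3 and the marker sum in AAV-Cre replicate 2, and their relation was not tested.

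The genes drawn with Gclc were chosen after their values had been seen. AAV-Cre replicates 3 and 4 lay below the other 6 arrays for 10 of 80 other pathway genes (12.5%) and above them for 15 (18.8%), against 13.4% and 18.8% of the named genes. Of the member probes 2 lay below in those arrays, Nfe2l2 and Gclc, and 2 of Keap1 lay above. The correlation of Gclc with Keap1 ILMN_2707771 over the 8 arrays was -0.94 (Spearman rho -0.93), the largest in size among pairs of member probes. With Keap1 ILMN_1258406 and ILMN_2621346 it was -0.88 and -0.63, and with Keap1 ILMN_2993267 it was 0.36, so its sign depended on the probe. With Nfe2l2 it was 0.73 (Spearman rho 0.45). In each, AAV-Cre replicates 3 and 4 are the lowest arrays of Gclc and lie below its detection. They also had the fewest detected probes, and the correlations are a description over arrays that share their group.

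**Figure D4:**
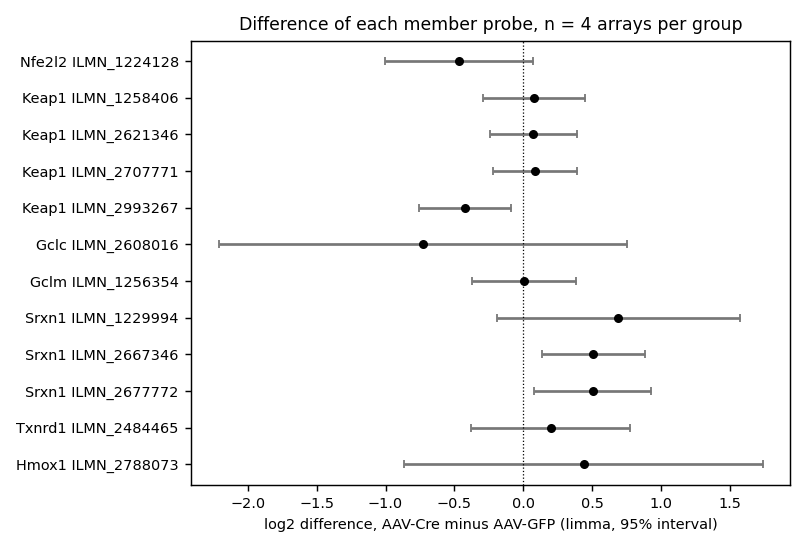
Difference of each member probe, AAV-Cre minus AAV-GFP, on the log2 scale (horizontal axis), with the 95% interval of the limma fit, n = 4 arrays per group. The intervals of Srxn1 ILMN_2667346 and ILMN_2677772 lie above 0, that of Keap1 ILMN_2993267 lies below 0, and the other 9 include 0.

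The rest of the pathway was described from 8 lists of 102 other genes, with 1 probe per gene. Of these 80 were measured, 38 with a higher and 42 with a lower mean in AAV-Cre, beside 5559 higher and 4081 lower of the 9640 named genes. At an unadjusted p under 0.05 there were 8 genes, 4 higher and 4 lower, beside 9.70% of the 9640 named genes (5.13% higher and 4.56% lower). Of the 8, Sod3 (higher) was not detected in AAV-GFP and Akr1b8 (lower) not in AAV-Cre. Of the 80 genes 0 were called. The median difference was -0.0083, and that of the named genes was 0.05. The groups did not overlap for 3 genes, all above, Sqstm1, Sod3 and Taldo1, beside 3.27% of named genes above and 1.95% below. Sod3 passed the detection filter only through AAV-Cre. The named genes of the lists are given with differences that did not pass the adjusted test, with adjusted p between 0.518 and 0.615 for the probe of smallest p.

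Among NRF2 partners and regulators 10 of 14 genes were measured, 6 higher and 4 lower, with 1 higher at an unadjusted p under 0.05. That was Sqstm1, encoding the p62 adaptor that draws KEAP1 into autophagy, at 13.78 ± 0.08 in AAV-GFP and 14.09 ± 0.14 in AAV-Cre (SD, n = 4 each), a difference of 0.32 ± 0.13. Rbx1, the RING subunit of the KEAP1 ligase, had a difference of -0.61 ± 0.27, with AAV-Cre replicates 3 and 4 at 12.17 and 12.02 and the other 6 arrays between 12.99 and 13.29. Btrc, an alternative ligase adaptor for NRF2, had a difference of 0.19 ± 0.14.

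Of the glutathione synthesis and peroxidase genes 10 of 15 were measured, 6 higher and 4 lower, and 3 of those lower had an unadjusted p under 0.05. They were the glutaredoxins Glrx2, at -0.83 ± 0.26, and Glrx3, at -1.31 ± 0.55, and Chac1, which degrades glutathione, at -0.38 ± 0.16. Glrx3 was 7.14 and 6.64 in AAV-Cre replicates 3 and 4 and between 8.97 and 9.48 in the other 6 arrays. Glrx2 was lowest in the same arrays, at 8.68 and 8.70, and Chac1 was lowest in AAV-Cre replicates 1 and 4, at 11.16 and 11.27.

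Of the glutathione transferases 15 of 16 were measured, 4 higher and 11 lower, with 0 at an unadjusted p under 0.05 by their brightest probe. Gstp1 was 14.15 and 13.67 in AAV-GFP replicates 1 and 4 and between 15.97 and 16.09 in the other 6 arrays, close to the highest signal of the arrays. Its difference of 1.05 ± 0.53 became -0.03 without AAV-GFP replicates 1 and 4, and also with the Xist term, nearly the same check. Gstm6 had a difference of 0.57 ± 0.24 by its probe of smallest p and 0.43 by its brightest, and Gsta4 one of 0.40 ± 0.22. Transferases of a class share sequence, so their probes may take up signal of a near copy.

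Of 17 thioredoxin and peroxiredoxin genes 14 were measured, 6 higher and 8 lower, with 0 at an unadjusted p under 0.05. Txn1, cytosolic thioredoxin, was 8.24 and 8.02 in AAV-Cre replicates 3 and 4 and between 10.17 and 11.05 elsewhere, a difference of -1.16 ± 0.62 that became 0.06 without them. Prdx4, the peroxiredoxin of the endoplasmic reticulum, had a difference of -0.34 ± 0.16. Prdx1, a substrate of sulfiredoxin, had one of -1.05 ± 0.55 by a dim probe and -0.14 by its brightest.

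All 6 superoxide dismutase and metallothionein genes were measured, 1 higher and 5 lower. The higher one was Sod3, the extracellular dismutase, which was detected in 0 of 4 AAV-GFP and 3 of 4 AAV-Cre arrays. It passed the detection filter only through AAV-Cre, so no fold between the groups is given. Its AAV-Cre mean was 1.17 times the lowest signals detected on the AAV-GFP arrays, and its difference did not pass the test (limma adjusted p = 0.518). Sod1 had a difference of -0.70 ± 0.32 by a dim probe and -0.06 by its brightest. Mt1, a zinc-binding metallothionein, lay between 16.02 and 16.08 in AAV-GFP, near the highest signals, and at 14.84, 16.05, 16.09 and 15.74 in AAV-Cre, a difference of -0.37 ± 0.26 that was -0.09 without AAV-Cre replicate 1.

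Of 8 genes of NADPH supply 5 were measured, 4 higher and 1 lower, with a median of 0.24. Taldo1, of the pentose phosphate pathway, was 13.46 ± 0.10 in AAV-GFP and 13.71 ± 0.15 in AAV-Cre (SD, n = 4 each), a difference of 0.24 ± 0.13 with all AAV-Cre arrays above all AAV-GFP arrays. Tkt, transketolase, had a difference of 0.24 ± 0.16 and H6pd, which makes NADPH in the endoplasmic reticulum, one of 0.31 ± 0.17. For both the groups overlapped.

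Downstream of heme oxygenase 6 of 7 heme and iron genes were measured, 3 higher and 3 lower. Hmox2, the constitutive heme oxygenase, had a difference of 0.34 ± 0.16, the heme transporter Slc48a1 one of 0.37 ± 0.18 and the iron exporter Slc40a1 (ferroportin) one of -0.35 ± 0.18. Ftl1, ferritin light chain, was 13.91 and 13.63 in AAV-Cre replicates 3 and 4 and between 14.67 and 15.21 elsewhere.

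Of 19 other NRF2 targets 14 were measured, 8 higher and 6 lower. An unadjusted p under 0.05 was reached by 2 of the higher and 1 of the lower genes. These 3 are named after their values were seen. Ugt1a6a, a glucuronosyltransferase, had a difference of 0.51 ± 0.20, and the conjugate exporter Abcc3 one of 0.45 ± 0.19. The lower gene, the aldo-keto reductase Akr1b8, was detected in 2 AAV-GFP and 0 AAV-Cre arrays, and no fold is given because its AAV-GFP mean was not above the lowest detected signals. Trib3, a stress-induced pseudokinase, had a difference of 1.00 ± 0.35 by its probe of smallest p and 0.28 by its brightest. The first of these was dim, detected in 2 of 4 AAV-GFP and 4 of 4 AAV-Cre arrays. Akr7a5 had a difference of 0.46 ± 0.18 by its probe of smallest p against 0.28. Entpd5, a nucleotidase of the endoplasmic reticulum, had one of -0.88 ± 0.35 against 0.05, and 2 of its 4 probes had the opposite sign. Its probe of smallest p was dim too, detected in 4 of 4 AAV-GFP and 2 of 4 AAV-Cre arrays.

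**Figure D5:**
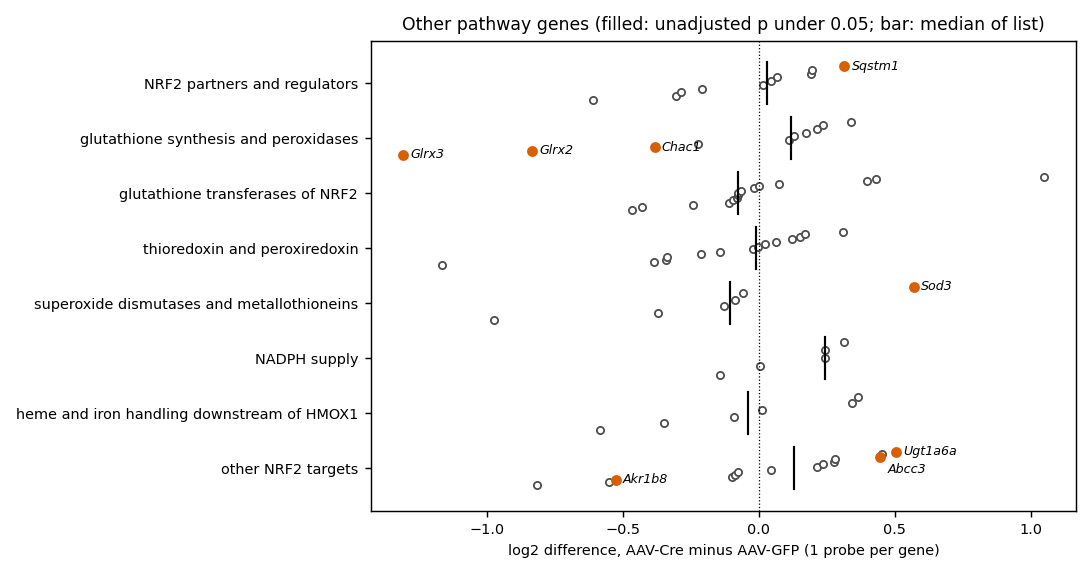
Difference of 80 other pathway genes, AAV-Cre minus AAV-GFP, on the log2 scale (horizontal axis), in 8 lists (rows) with 1 probe per gene, filled where the unadjusted p was under 0.05 and with a bar at the list's median. Filled points lie on both sides of 0, 4 higher and 4 lower, of which Sod3 was not detected in AAV-GFP and Akr1b8 not in AAV-Cre, and no gene passed the adjusted test.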

How the data were processed

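Total RNA of hepatocytes (RNA integrity number above 7.5 per the labels) was amplified, biotin-labelled and hybridised to Illumina MouseWG-6 v2 arrays, 1 per sample. The deposited table holds, for 45281 probes in 8 arrays, the signal exported with GenomeStudio as a linear intensity without normalization, and a deposited detection p-value against negative control beads. The authors also deposited a quantile-normalized intensity table of 16820 probes, whose linear, uncentred values were matched within 0.0389 on the log2 scale and whose column medians were 708.1 to 709.1. Gene names came from the platform annotation, in which 14408 of those probes had 1 symbol, 7 had several and 2405 had none, and 5210 detected probes were left unnamed.

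Intensities were background-corrected by normexp (offset 16), quantile-normalized and log2-transformed with neqc (limma 3.58.1, R 4.3.3). A probe was kept if its detection p-value was 0.05 or less in at least 1 array. The 2 groups were compared with lmFit and eBayes without covariates, two-sided, with Benjamini-Hochberg adjustment over 19618 probes and calls at an adjusted p under 0.25, a threshold of the study's methods. The script was tested on simulated data. Members and lists were chosen with earlier results of these data known. Every member probe was named, and from each pathway list up to 3 genes of smallest p, each by its probe of smallest p, while lists were counted by each gene's brightest probe. A further part of the rule, 3 genes most like Nqo1, could not be applied because Nqo1 had 0 probes under its symbol in this annotation. The median standard error of a difference was 0.21. Markers of other cell types gave, as measured genes of those listed, 10 of 11 for sinusoidal endothelial cells (10 higher), 2 of 7 for cholangiocytes (2 higher), 4 of 8 for stellate cells (2 higher), 2 of 6 for erythroid cells (1 higher) and 3 of 5 for sex (2 higher), and of the 6 hepatocyte markers 1 was higher. Of the 9640 named genes 5559 were higher. Alternatives changed background correction, offset, scaling, filter on detection, table of values, number of probes per gene, intensity trend, weights per array, test, replicate block and which arrays entered. Promoter windows were RefSeq's (GRCm38.p6). Among the measured members they were available for Nfe2l2, Keap1, Gclm, Srxn1 and Txnrd1, and not for Gclc and Hmox1. Windows of Nqo1 and Cat were also available and held none of the motifs searched. Figures were drawn with matplotlib 3.10.9.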

Additional observations from a re-analysis of the deposited data

Results flagged for a closer look

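In 2 of 72 groups of 4 arrays, 1 array lay apart from the other 3 by Dixon's criterion, which chance gives in about 1 of 20 groups. Sqstm1 (probe ILMN_2710705) was 13.9 in AAV-GFP replicate 1 and between 13.72 and 13.75 in the other AAV-GFP arrays. H6pd (probe ILMN_1244188) was 14.6 in AAV-Cre replicate 1 and between 14.89 and 14.92 in the other AAV-Cre arrays.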

How the results depend on the processing

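No member probe was called under any of 25 alternatives, and the lowest adjusted p of a member was 0.284, without AAV-Cre replicate 1. Of 292 member values under the alternatives, 279 kept their direction and 13 turned it. Changing only the detection filter, probes per gene, intensity trend, test or replicate block cannot change a difference. The direction of those values was therefore fixed, and the 279 overstate how stable it was. Gclm was -0.040 with cyclic loess and ran from -0.065 to 0.12 when each array was left out. Keap1 ILMN_1258406 ran from -0.013 to 0.18 when each array was left out. Without AAV-Cre replicates 3 and 4, Keap1 ILMN_1258406, ILMN_2621346 and ILMN_2707771 were -0.16, -0.030 and -0.043, Gclc 0.50, Prdx1 0.057 and Txn1 0.059. Without AAV-GFP replicates 1 and 4, Hmox1 was -0.52 and Gstp1 -0.031. With the Xist term, nearly the same check because it marked only those arrays, they were -0.51 and -0.026. The cause of these turns was not tested.

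The 3 member probes at an unadjusted p under 0.05 became 1 with 1 probe per gene, 1 without AAV-Cre replicates 3 and 4, 0 without AAV-GFP replicates 1 and 4 and 0 with the Xist term. The 8 pathway genes became 14 without background correction, 13 with an intensity trend, 5 with 75th percentile scaling, 2 with the Xist term, 4 without AAV-GFP replicates 1 and 4 and, leaving out AAV-Cre replicates 3 and 4, 1. They ran from 2, with AAV-Cre replicate 4 left out, to 13, with AAV-Cre replicate 2 left out, when each array was left out. They were 3 without AAV-GFP replicate 4 and 4 without AAV-Cre replicate 3. The 1856 of all probes became 3402 without a detection filter, which tests 45281 probes, 1054 with the Xist term, 1013 without AAV-GFP replicates 1 and 4 and, leaving out AAV-Cre replicates 3 and 4, 730. Leaving out AAV-Cre replicate 4 alone gave 997, the lowest of 8 single arrays, AAV-Cre replicate 3 gave 1082, and AAV-Cre replicate 1 gave 3126, the highest. The 1 probe called became 0 among probes detected in all 8 arrays, where 12779 were tested, 2 without background correction, with an offset of 50, with 75th percentile scaling, with an intensity trend, with array weights and with the Xist term, 3 on the authors' value table and 10 by the SAM statistic, and ran from 1 to 10 with single arrays left out (10 for AAV-GFP replicate 2, 4 for AAV-Cre replicate 1, 2 for AAV-GFP replicate 3). By SAM on the authors' table, added after seeing the data, it was 78. With cyclic loess 38.2% of the probes at an unadjusted p under 0.05 were higher, against 55.0%, and with 75th percentile scaling the median of all probes was 0.12.

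Deviations of same-numbered arrays correlated at 0.19, 0.07, 0.02 and 0.13. Arrays of different number were not compared, so these values cannot decide whether the replicate numbers pair the arrays. With the replicate number as a block 0 member probes and 1 of all probes were called, 3 member probes, 10 pathway genes and 2078 of all probes had an unadjusted p under 0.05, and no call of a member changed. With 1 array per group at each number the block cannot change a difference, such as -0.47 for Nfe2l2 and 0.51 for Srxn1 ILMN_2667346. It changed the standard errors. They rose for all Keap1 probes and for Srxn1 ILMN_2667346 and ILMN_2677772, for the last from 0.19 to 0.22. They fell for the other member probes, from 0.58 to 0.22 for Hmox1 and from 0.65 to 0.37 for Gclc.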
